A study of Mus musculus with 98 samples.

Results

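Integrins are surface receptors made of an alpha and a beta chain, and a chain reaches the cell surface only when it is paired. On gut lymphocytes the beta chain encoded by Itgb7 pairs with the Itga4 product to bind the mucosal addressin of intestinal vessels (Madcam1), or with the Itgae product (CD103) to bind E-cadherin (Cdh1) on epithelium. The Itgal and Itgb2 products form LFA-1, which binds ICAMs, and Itgb1 pairs with Itga1 (a collagen receptor), Itga4 (a VCAM-1 and fibronectin receptor) or Itgav (a receptor for RGD-containing matrix and latent TGF-beta).

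The 8 genes Itgb7, Itga4, Itgae, Itgal, Itgb2, Itga1, Itgb1 and Itgav were taken as a named list, by gene symbol, from 23420 gene symbols, and all 8 had a row in both deposited tables. They were followed in single innate lymphoid cells (ILCs) of mouse intestine profiled by full-length RNA sequencing, 1 cell per library. R9-ILCs were made from pluripotent stem cells (strain C57BL/6 per the labels) and recovered from the intestine of Rag2-/-Il2rg-/- recipients, mice without T, B and innate lymphocytes of their own, 3 weeks after transplantation, as CD45.2+ GFP+ Lin- CD127+ cells. WT-ILCs came from the intestine of wild-type C57BL/6 mice (CD45.2, 8 weeks old) through a CD45.2+ Lin- CD127+ gate. R9 titles form 2 series, which the labels do not explain: 35 cells whose title ends in 1 after the cell number (suffixed R9 cells) and 32 cells with no such ending (unsuffixed R9 cells). The 31 WT columns were reduced to 22 WT cells, since 8 of these were each averaged from 2 or more columns with a Pearson r above 0.8. In 7 of the 8 the joined columns share a title number, and in the remaining one a column numbered 16 was joined with the 2 columns numbered 32.

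No animal is named in the labels, so each group counts as 1 sample, cells are not replicates, and no p-value is given. Values are TPM, the authors' transcript abundances scaled to a fixed total per cell, which are corrected for transcript length and can be compared between genes, and "detected" means 1 TPM or more. TPM keeps no read depth. The median number of detected genes was 2429 in suffixed R9 cells, 2082.5 in unsuffixed R9 cells and 2092.5 in WT cells. Of the values above 0, a median of 26.9% per cell lay below 1 TPM in suffixed R9 cells, 0.147% in unsuffixed R9 cells and 17.2% in WT cells, so low values were listed unequally. Cells in which the top gene took at least 10% of the TPM numbered 1 of 35 in suffixed R9, 26 of 32 in unsuffixed R9 and 5 of 22 in WT. The housekeeping gene Gapdh stood at 0 in 1, 24 and 9 of these cells, so a listed 0 can be a failed estimate, and spreads are given as quartiles. Id2, Il7r and Il2rg, genes that ILCs share, were detected in every cell of all 3 groups, and Il7r (CD127) belongs to the sort gate. They are part of a list of 16 ILC markers, several of which were missed in many cells. Ptprc (CD45), also of the gate, was in 19 of 35 suffixed R9, 32 of 32 unsuffixed R9 and 15 of 22 WT cells. Thy1 was in 25, 5 and 7 cells of these groups, and Gata3 in 10, 22 and 5.

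Sequence is shown for the genes of the Itga4 and Itgb7 pair, on which the gut-homing result turns. These are the 250 bases before the annotated RefSeq transcript start (GRCm38.p6), 5′ to 3′ on the gene's strand, with capitals marking the letters ACCACA, the reverse complement of the RUNX motif TGTGGT.
Itga4 (chr2:79255176-79255425, plus strand): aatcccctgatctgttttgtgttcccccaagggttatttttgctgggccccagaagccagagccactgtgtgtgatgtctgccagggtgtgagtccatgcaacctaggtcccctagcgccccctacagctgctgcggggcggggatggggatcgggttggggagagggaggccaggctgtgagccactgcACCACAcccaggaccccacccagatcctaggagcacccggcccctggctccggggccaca
Itgb7 (chr15:102231936-102232185, minus strand): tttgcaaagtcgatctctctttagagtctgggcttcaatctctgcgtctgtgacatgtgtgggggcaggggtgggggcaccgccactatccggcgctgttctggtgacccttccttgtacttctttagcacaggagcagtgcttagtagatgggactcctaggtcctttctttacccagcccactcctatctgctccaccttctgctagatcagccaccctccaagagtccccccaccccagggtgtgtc
Both strands were searched. TGTGGT was held by 14% of 32851 windows of this length and, among the 5 members with a window (Itgb7, Itga4, Itga1, Itgb1 and Itgav), by that of Itga4. The ETS letters CCGGAA (12% of windows), the GATA letters AGATAA (9.99%) and the nuclear receptor letters AGGTCA (14%) were in 0 of the 5. A match of letters does not show that a factor binds.

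Itgb7 was the highest of the 8 genes in each group, and it was listed higher and in more cells in both R9 series than in WT. The gene lies on chromosome 15 at 102215995 to 102231944 (minus strand, GRCm38). It had a lowest, median and highest value of 0, 133.3 and 1633 TPM in suffixed R9 cells, 10.3, 148.3 and 741.5 TPM in unsuffixed R9 cells, and 0, 4.01 and 830.0 TPM in WT cells. The ranges of the 3 groups overlap, and the highest WT cell lies above every unsuffixed R9 cell. It was detected in 33 of 35 suffixed R9 cells (94.3%, exact Clopper-Pearson 95% interval 80.8 to 99.3), 32 of 32 unsuffixed R9 cells (100%, 89.1 to 100), and in WT in 15 of 22 (68.2%, 45.1 to 86.1). Only the interval of the unsuffixed R9 cells lies apart from that of WT. At 10 TPM or more, the shares were 60.0% (42.1 to 76.1) in suffixed R9 cells, 100% (89.1 to 100) in unsuffixed R9 cells and 45.5% (24.4 to 67.8) in WT cells, and the unsuffixed R9 interval lies above both others. All such intervals cover counting error over cells only. The share of all genes whose intervals lie apart between these groups is not given here. Intervals that lie apart are therefore not read as particular to a member.

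Mean Itgb7 levels were 361.8 TPM in suffixed R9 cells (quartiles 4.17 and 641.6), 211.6 TPM in unsuffixed R9 cells (44.9 and 322.0) and 105.4 TPM in WT cells (0.242 and 43.5). The log2 ratio of means, with 1 TPM added to both, was 1.77 for suffixed R9 over WT and 1.00 for unsuffixed R9 over WT, the second just below the size rule of 1 used for a call. All genes had a median of 0.94 and -0.67 in these comparisons, so Itgb7 stood 0.83 and 1.67 above it. Without the highest cell of each group the ratios were 2.18 and 1.44. WT cells made from 1 column alone gave ratios of 1.20 and 0.43, beside all-gene medians of 1.28 and -0.21. By that choice Itgb7 in suffixed R9 lay slightly below the median of all genes. It was detected in 11 of 14 such WT cells against 4 of 8 joined ones. By title ending, it was detected in 3 of 9 WT columns of ending 1 (mean 84.3 TPM) and 14 of 21 of ending 2 (79.9 TPM), and 1 WT column without an ending in its name was placed in neither.

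Inside the suffixed R9 series, Itgb7 fell into 2 ranges of level. In 21 cells it lay at 28.1 TPM or more, reaching 1000 TPM in 4 of them, in 12 cells it lay between 1 and 5.96 TPM, and in 2 it was listed at 0. The unsuffixed R9 cells show no such gap, and their lowest cell was at 10.3 TPM. In the suffixed series a gap around 10 TPM was not particular to Itgb7. No cell there lay between 8.83 and 28.5 TPM for Itga4 or between 0.883 and 15.3 TPM for Itgal. The same held between 7.05 and 26.7 TPM for Itgb1 and between 4.67 and 10.96 TPM for Itgav.

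**Figure D1:**
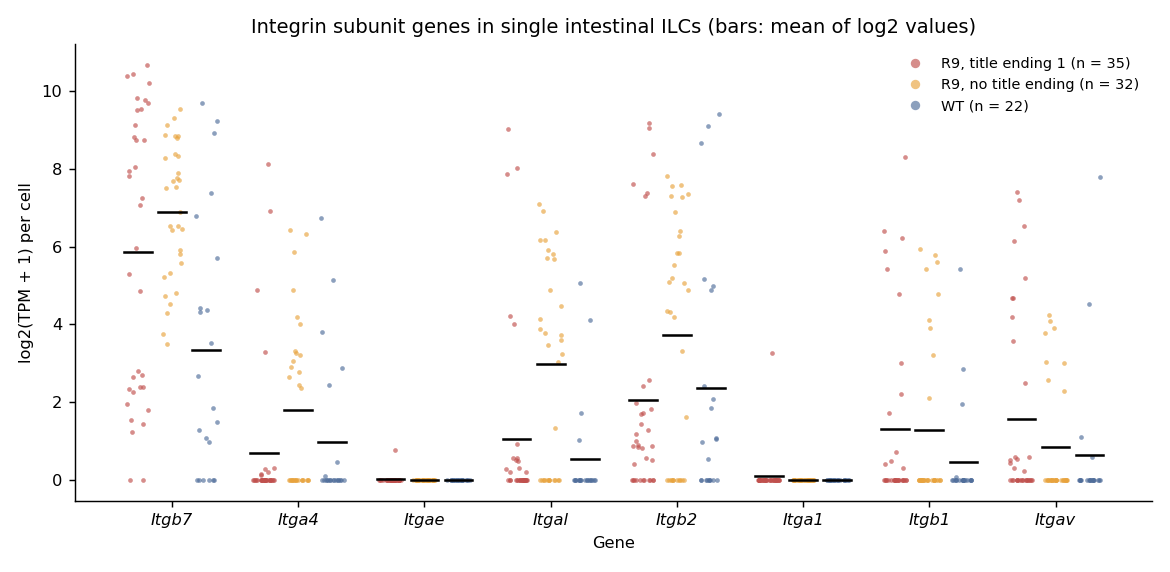
log2(TPM + 1) of the 8 integrin genes, where each point is 1 cell of the suffixed R9 series, the unsuffixed R9 series or WT and each bar is the mean of the log2 values. Itgb7 is highest in every group, with a gap between 5.96 and 28.1 TPM in suffixed R9 cells, while Itgae is below 1 TPM in every cell and Itga1 is at 0 in all but 1 suffixed R9 cell, at 8.57 TPM.

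Cells with more Itgb7 transcript also had more of several marker lists in the unsuffixed R9 series. There, over 32 cells, Spearman's coefficient of Itgb7 was 0.86 with the summed ILC markers, 0.76 with the summed mast cell markers, 0.78 with the summed macrophage and dendritic markers, -0.18 with the summed epithelial markers and 0.59 with the number of detected genes. In suffixed R9 cells the same values were -0.05, 0.12, -0.05, -0.15 and -0.05 over 35 cells, and in WT cells 0.14, -0.28, -0.14, 0.21 and 0.16 over 22 cells. These values describe cells whose TPM share a fixed total and whose numbers of detected genes differ. Mast cell progenitors of the gut are known to carry the Itga4 and Itgb7 pair. Of the 10 mast cell markers, 3, 6 and 1 were detected in any suffixed R9, unsuffixed R9 or WT cell. Their sum ranged from 0 to 615.9 TPM, from 61.1 to 4659 TPM and from 0 to 3.91 TPM in these groups. The mast cell protease genes Tpsb2, Cpa3 and Cma1 were detected in 31, 30 and 28 of 32 unsuffixed R9 cells, with means of 575.1, 566.5 and 335.8 TPM. In suffixed R9 cells Cpa3 was in 3 of 35 and the other two were at 0, and in WT cells Cma1 was in 1 of 22 and the other two were at 0. The mast cell receptor gene Ms4a2 was at 0 in all 3 groups. The part of these transcripts in the Itgb7 level of unsuffixed R9 cells was not tested. The 13 epithelial markers, of which 13, 12 and 13 were seen in suffixed R9, unsuffixed R9 and WT cells (Cdh1 was at 0 in unsuffixed R9), also differed between the groups. Their summed level had a median of 64.4 TPM (0.753 to 16652) in suffixed R9, 1267 TPM (37.3 to 435978) in unsuffixed R9 and 7620 TPM (15.5 to 115706) in WT cells. Single markers went different ways. Fabp2, an enterocyte gene, was in 27 of 35, 12 of 32 and 22 of 22 cells, but Fabp1 was in 18, 24 and 15 of them. In unsuffixed R9 over WT, 6 of the 13 had a log2 ratio of 1 or more and 7 of -1 or less, beside 26.6% and 44.5% of all genes. The part of the epithelial markers in the differences from WT was not tested.

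The genes whose levels followed Itgb7 most closely, by the mean of Spearman's coefficient inside the 3 groups over 2552 compared genes, were Lmo4, Psap and Arhgdia. Lmo4, a LIM-only transcriptional cofactor, had a coefficient of 0.53, 0.75 and 0.39 in suffixed R9, unsuffixed R9 and WT cells. Psap, the precursor of lysosomal saposins, had 0.44, 0.78 and 0.43, and Arhgdia 0.39, 0.75 and 0.50. The median of the mean coefficient over all compared genes was 0.11. Itgb2 was the one other member that could be compared, and its mean coefficient with Itgb7 was 0.17.

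Itga4, the alpha chain of the gut-homing receptor (chromosome 2, 79255426 to 79333123), was listed in fewer cells than Itgb7 in each group. Its lowest, median and highest values were 0, 0 and 279.2 TPM in suffixed R9 cells, 0, 0 and 84.8 TPM in unsuffixed R9 cells, and 0, 0 and 104.6 TPM in WT cells. It was detected in 4 of 35 suffixed R9 cells (11.4%, 3.20 to 26.7), 15 of 32 unsuffixed R9 cells (46.9%, 29.1 to 65.3), and in WT in 5 of 22 (22.7%, 7.82 to 45.4). The intervals of the 2 R9 series do not overlap at this limit, but the WT interval overlaps both. At 10 TPM or more the shares were 8.57% (1.80 to 23.1), 18.8% (7.21 to 36.4) and 13.6% (2.91 to 34.9) in the same groups, and these intervals all overlap, as they do for any value above 0, with 25.7% (12.5 to 43.3), 46.9% (29.1 to 65.3) and 31.8% (13.9 to 54.9). Of the 15 unsuffixed R9 cells with the transcript, 9 had less than 10 TPM. Spearman's coefficient of the Itga4 level there was 0.33 with the summed ILC markers and 0.12 with the summed epithelial markers. It was 0.30 with the summed mast cell markers, 0.31 with the summed macrophage and dendritic markers and 0.31 with the number of detected genes. The part of these markers and of the number of detected genes was not tested.

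Mean Itga4 levels were 12.5 TPM in suffixed R9 cells, 10.7 TPM in unsuffixed R9 cells and 7.42 TPM in WT cells. The log2 ratios over WT were 0.68 and 0.47 for the suffixed and unsuffixed R9 series, beside all-gene medians of 0.94 and -0.67. Of the summed TPM, 1 cell held 63.8% in suffixed R9 and 1 cell 64.1% in WT. Without the highest cell of each group the ratios over WT were 0.58 and 1.29, beside all-gene medians of 0.83 and 0. With WT columns of ending 1 alone they were 1.55 and 1.34, beside 1.65 and 0.41. Without cells in which the top gene took 10% of the TPM the ratios were 0.50 and 1.57, beside 0.71 and -1.62. By the mean of log2 values the ratios were -0.29 and 0.82, beside 0.21 and -0.07, so the direction in suffixed R9 turned. Suffixed R9 over unsuffixed R9 stood at 0.21, beside an all-gene median of 1.61. Without the highest cell of each it stood at -0.72, beside 1.00.

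Transcripts of both chains of the gut-homing pair were seen together mainly in the unsuffixed R9 series. Itga4 and Itgb7 were both detected in 3 of 35 suffixed R9 cells (8.57%, 1.80 to 23.1), 15 of 32 unsuffixed R9 cells (46.9%, 29.1 to 65.3), and in WT in 2 of 22 (9.09%, 1.12 to 29.2). The unsuffixed R9 interval lies above that of suffixed R9 but overlaps that of WT at its edge. Every unsuffixed R9 cell had Itgb7, so its count of both equals its count of Itga4. With both at 10 TPM or more the shares were 2.86%, 18.8% and 4.55% in suffixed R9, unsuffixed R9 and WT, and with both above 0 they were 22.9%, 46.9% and 18.2%. Of the cells with Itgb7, 30 of 33 suffixed R9 cells, 17 of 32 unsuffixed R9 cells and 13 of 15 WT cells had neither Itga4 nor Itgae at 1 TPM. Among WT cells, 3 had Itga4 without Itgb7.

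Itgae (chromosome 11, 73090583 to 73147446), the alpha chain that binds E-cadherin, was detected in 0 cells of any group. It was listed at 0 in 34 of 35 suffixed R9 cells, with 0.705 TPM in the remaining one (the cell with the most detected genes, 6042), and at 0 in all 32 unsuffixed R9 and all 22 WT cells. No fold is given. Intraepithelial lymphocytes and mucosal mast cells are known to carry Itgae. E-cadherin itself (Cdh1) was detected in 3 of 35 suffixed R9 cells, 0 of 32 unsuffixed R9 cells and 2 of 22 WT cells. Zeros include possible failed estimates, so they set no limit on expression.

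**Figure D2:**
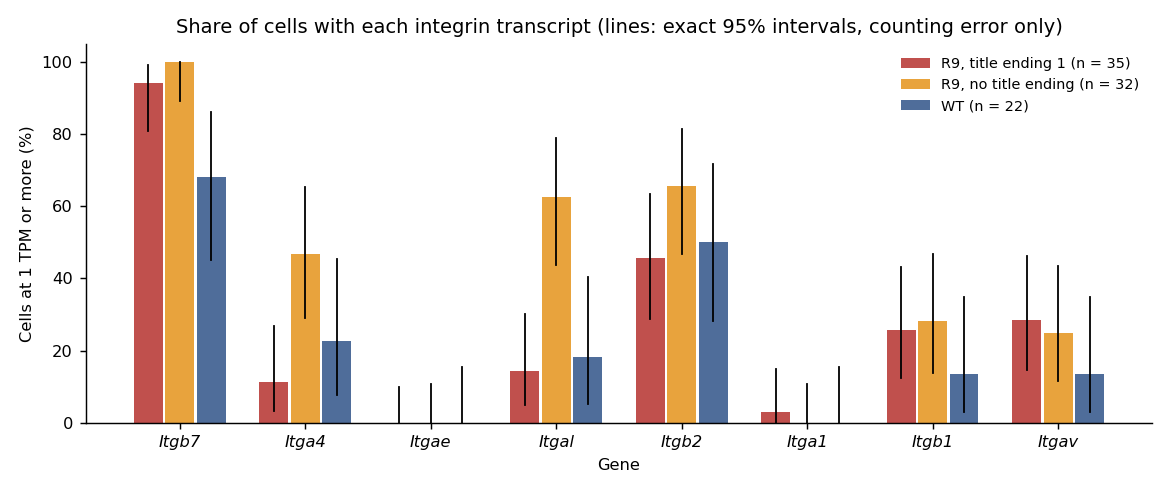
Share of cells at 1 TPM or more for each of the 8 genes, with bars for suffixed R9, unsuffixed R9 and WT cells and lines for the exact 95% intervals, which cover counting error only. Itgal is at 62.5% in the unsuffixed R9 series, with an interval above both others. Itga4 is at 46.9% there, with an interval that overlaps that of WT, and Itgae is at 0 in all 3 groups.

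Itgal, the alpha chain of LFA-1 (chromosome 7, 127296260 to 127335138), was detected at 1 TPM or more in a larger share of the unsuffixed R9 series than of the other groups. Its lowest, median and highest values were 0, 0 and 514.8 TPM in suffixed R9 cells, 0, 10.5 and 135.0 TPM in unsuffixed R9 cells, and 0, 0 and 32.3 TPM in WT cells. It was detected in 5 of 35 suffixed R9 cells (14.3%, 4.81 to 30.3), 20 of 32 unsuffixed R9 cells (62.5%, 43.7 to 78.9), and in WT in 4 of 22 (18.2%, 5.19 to 40.3). The interval of the unsuffixed R9 cells lies above both others. At 10 TPM or more the shares were 14.3% (4.81 to 30.3), 53.1% (34.7 to 70.9) and 9.09% (1.12 to 29.2) in the same groups, and the unsuffixed R9 interval again lies apart. Counting every value above 0, it was listed in 40% (23.9 to 57.9), 62.5% (43.7 to 78.9) and 18.2% (5.19 to 40.3) of the cells, and the intervals of the 2 R9 series then overlap. Cells with Itgal did not have more detected genes in that series, with a median of 2038 genes against 2164 in cells without it. Spearman's coefficient of the Itgal level in that series was 0.15 with the summed ILC markers and 0.06 with the summed epithelial markers. It was 0.14 with the summed mast cell markers, 0.17 with the summed macrophage and dendritic markers and 0.30 with the number of detected genes.

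The 2 R9 series had like Itgal means from different numbers of cells. Mean levels were 29.9 TPM in suffixed R9 cells, 26.2 TPM in unsuffixed R9 cells and 2.36 TPM in WT cells. In suffixed R9 the mean came from 5 cells, 1 of which held 49.3% of the sum, and in unsuffixed R9 the highest cell held 16.1%. The highest WT cell, at 32.3 TPM, was the one joined from columns numbered 16 and 32. The log2 ratios over WT were 3.20 for suffixed R9 and 3.02 for unsuffixed R9, and 3.10 and 3.61 without the highest cells. With the mean of log2(TPM + 1) in place of the log2 of the mean, they were 0.52 and 2.44. Among the 34 suffixed R9, 6 unsuffixed R9 and 17 WT cells in which no gene held 10% of all TPM, the ratios were 2.97 and 0.15. The all-gene medians among these cells were 0.71 and -1.62.

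Itgb2, the beta chain of LFA-1 and of the myeloid integrins (chromosome 10, 77530252 to 77565708), was second to Itgb7 by mean level in each group. Its lowest, median and highest values were 0, 0.841 and 579.2 TPM in suffixed R9 cells, 0, 23.9 and 226.1 TPM in unsuffixed R9 cells, and 0, 1.03 and 684.0 TPM in WT cells. It was detected in 16 of 35 suffixed R9 cells (45.7%, 28.8 to 63.4), 21 of 32 unsuffixed R9 cells (65.6%, 46.8 to 81.4), and in WT in 11 of 22 (50%, 28.2 to 71.8). These intervals overlap. At 10 TPM or more it was seen in 17.1% of suffixed R9 cells (6.56 to 33.6), 59.4% of unsuffixed R9 cells (40.6 to 76.3) and, in WT, 27.3% (10.7 to 50.2), where the intervals of the 2 R9 series do not overlap. For any value above 0 the shares were 68.6% (50.7 to 83.1), 65.6% (46.8 to 81.4) and 59.1% (36.4 to 79.3), and these intervals overlap. So do those at 100 TPM or more, with 17.1%, 21.9% and 13.6%.

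Itgb2 was also split by level in suffixed R9 cells, where 6 cells lay at 156.0 TPM or more and the other 29 at 4.96 TPM or less. WT cells likewise held no Itgb2 value between 4.33 and 28.8 TPM. Mean levels were 56.8 TPM in suffixed R9 cells, 53.4 TPM in unsuffixed R9 cells and 79.5 TPM in WT cells. The log2 ratios over WT were -0.48 and -0.56 for the suffixed and unsuffixed R9 series, beside all-gene medians of 0.94 and -0.67. Measured from those medians, Itgb2 stood at -1.42 and 0.10, so the 2 series were not alike. The mean of log2 values gave -0.32 and 1.37, beside all-gene medians of 0.21 and -0.07. The unsuffixed series thus lay on the other side of 0 by that measure. Myeloid cells also use Itgb2, and the summed macrophage and dendritic markers (6, 8 and 7 of 10 measured markers seen in suffixed R9, unsuffixed R9 and WT cells) ranged from 0 to 1874 TPM, 39.99 to 3920 TPM and 0 to 4834 TPM. Their part was not tested. Spearman's coefficient of Itgb2 with that sum was 0.23, 0.21 and 0.00 in these groups, with the summed mast cell markers 0.42, 0.38 and 0.16, and with the number of detected genes 0.36, 0.15 and 0.13. With the summed ILC markers it was 0.05, 0.38 and 0.33, and with the summed epithelial markers -0.04, -0.18 and -0.42. Itgam and Itgax, the myeloid alpha partners of Itgb2, were each detected in at most 1 cell of a group, and Itgax was at 0 in both R9 series.

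**Figure D3:**
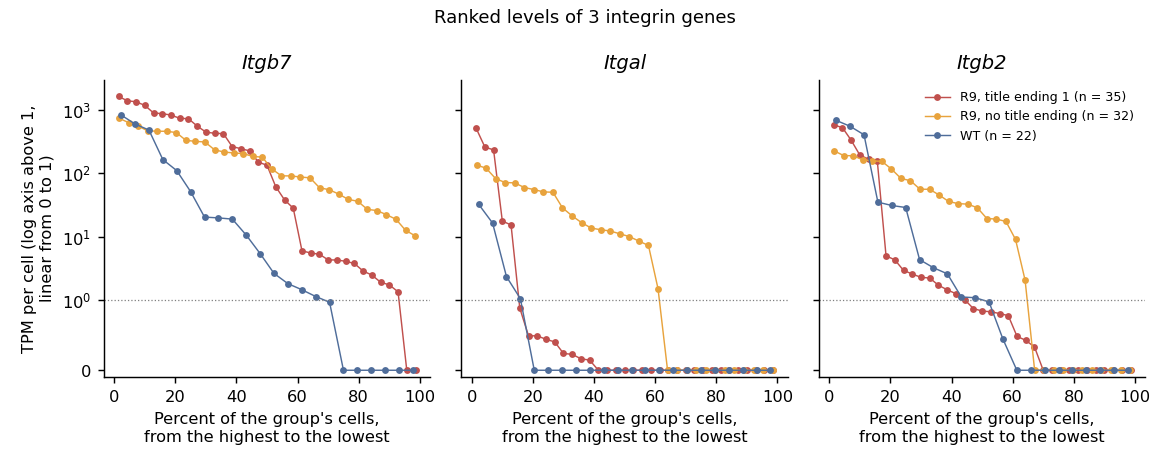
TPM of Itgb7, Itgal and Itgb2 in every cell, against the percent of the group's cells ranked from the highest to the lowest, for suffixed R9 (title ending 1), unsuffixed R9 and WT cells, on an axis that is logarithmic above 1 TPM and linear below it. Unsuffixed R9 cells stay at 10.3 TPM or more for Itgb7, whereas in suffixed R9 cells Itgb2 lies at 156.0 TPM or more in 6 cells and at 4.96 TPM or less in the others.

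Itgal and Itgb2 were detected together in 3 of 35 suffixed R9 cells (8.57%, 1.80 to 23.1), 12 of 32 unsuffixed R9 cells (37.5%, 21.1 to 56.3), and in WT in 2 of 22 (9.09%, 1.12 to 29.2). With both above 0 the shares were 37.1%, 37.5% and 9.09%, so the R9 series differ by this measure only where values below 1 TPM are left out. At 10 TPM or more they were 2.86%, 31.2% and 4.55%. In unsuffixed R9 cells the median Itgb2 level was 13.2 TPM in the 20 cells with Itgal and 45.9 TPM in those without it, and 8 of the cells with Itgal had no Itgb2 at 1 TPM.

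Itgb1, the widely used beta chain of matrix receptors (chromosome 8, 128685654 to 128733200), was detected in similar shares of both R9 series. It was seen in 9 of 35 suffixed R9 cells (25.7%, 12.5 to 43.3), 9 of 32 unsuffixed R9 cells (28.1%, 13.7 to 46.7), and in WT in 3 of 22 (13.6%, 2.91 to 34.9), with overlapping intervals. The lowest and median values were 0 in all groups, and the highest were 316.9 TPM in suffixed R9, 60.7 TPM in unsuffixed R9 and 42.3 TPM in WT cells. Means were 17.6, 8.51 and 2.34 TPM, and 1 cell held 82.2% of the WT sum. The log2 ratios over WT were 2.48 for suffixed R9 and 1.51 for unsuffixed R9. The 3 WT cells with Itgb1 had a median of 5261 detected genes and those without it 1939. These medians were 2736 and 2373 in suffixed R9 and 2288 and 1988 in unsuffixed R9, and the link was not tested. Without cells of more than 4000 genes the ratios were 3.92 and 3.05. Without cells in which the top gene took 10% of the TPM, they were 2.15 and, with 6 unsuffixed R9 cells left, -2.01. The sign in that series thus turned, but the all-gene medians of this setting were 0.71 and -1.62.

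Itgav (chromosome 2, 83724397 to 83806916) differed between the R9 series more by mean than by share at 1 TPM or more. It was detected in 10 of 35 suffixed R9 cells (28.6%, 14.6 to 46.3), 8 of 32 unsuffixed R9 cells (25%, 11.5 to 43.4), and in WT in 3 of 22 (13.6%, 2.91 to 34.9). Counting any value above 0, Itgav was listed in 48.6% (31.4 to 66.0), 25% (11.5 to 43.4) and 18.2% (5.19 to 40.3), with overlapping intervals. Its median was 0 in each group, and the highest cell stood at 167.8 TPM in suffixed R9, 17.99 TPM in unsuffixed R9 and 220.9 TPM in WT. Means were 17.03, 2.63 and 11.1 TPM. Suffixed R9 over unsuffixed R9 stood at 2.31, beside an all-gene median of 1.61. By the mean of log2 values it stood at 0.74, beside 0.26. Unsuffixed R9 over WT stood at -1.74, but 1 WT cell held 90.3% of the WT sum, and the ratio was 0.56 without the highest cell of each group. The ratio of suffixed R9 over WT was 0.57, and 2.68 without those cells.

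Itga1 (chromosome 13, 114953096 to 115101964), the collagen receptor chain that marks resident lymphocytes in several tissues, was detected in 1 of 35 suffixed R9 cells, at 8.57 TPM, in 0 of 32 unsuffixed R9 cells and in 0 of 22 WT cells. It was the same cell that listed Itgae, and it held Itgb1 as well. Of the other Itgb1 pairs, Itga4 with Itgb1 was seen in 1 of 35, 4 of 32 and 0 of 22 cells, and Itgav with Itgb1 in 2 of 35, 2 of 32 and 0 of 22 cells of suffixed R9, unsuffixed R9 and WT. Annotated genes overlap 4 of the members, namely Cerkl at Itga4, Gm13684 and Dnmt3l-ps1 at Itgav, Haspin at Itgae, and Pelo, Gm49395 and Gm10734 at Itga1. Counting by strand is not given in the sources used here, so reads of these genes could not be told apart where they overlap.

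**Figure D4:**
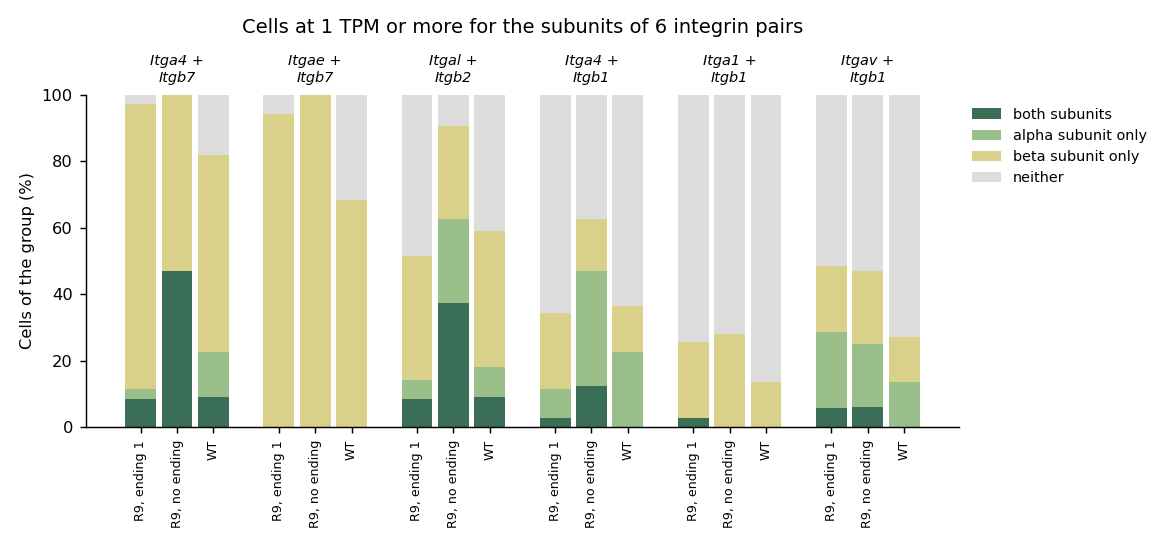
Share of cells in which both chains, the alpha chain alone, the beta chain alone or neither were at 1 TPM or more, for 6 integrin pairs in suffixed R9, unsuffixed R9 and WT cells. Both chains of Itga4 with Itgb7 were seen in 46.9% of unsuffixed R9 cells against 8.57% of suffixed R9 cells and 9.09% of WT cells, and beta chain alone is the most frequent state of the Itgb7 pairs in all groups.

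Members detected per cell had a median of 2 in suffixed R9 (range 0 to 4), 3 in unsuffixed R9 (1 to 5) and 2 in WT cells (0 to 3). By mean level the order was Itgb7, Itgb2, Itgal, Itgb1, Itgav and Itga4 in suffixed R9, Itgb7, Itgb2, Itgal, Itga4, Itgb1 and Itgav in unsuffixed R9, and Itgb7, Itgb2, Itgav, Itga4, Itgal and Itgb1 in WT. The Itgb7 mean exceeded that of 94.0%, 93.1% and 82.7% of genes averaging at least 1 TPM in these groups. Neighbours in the order, Itgb7 and Itgb2 included, overlapped in their ranges over cells. In R9 cells split by the epithelial gene Epcam, Itgb7 was detected in 13 of 14 suffixed cells with Epcam and 20 of 21 without it, and in 3 of 3 and 29 of 29 unsuffixed cells.

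Of the 8 members, 6 averaged at least 1 TPM in a group of each comparison, and Itgae and Itga1 did not. For suffixed R9 over WT, a log2 ratio of 1 or more was found for Itgb7, Itgal and Itgb1, beside 48.8% of all 10395 genes, and 0 members lay at -1 or less, beside 20.4%. For unsuffixed R9 over WT it was found for Itgal and Itgb1, beside 26.6% of 9956 genes, and Itgav lay at -1 or less, beside 44.5%. Pooled R9 cells over WT gave Itgb7 (1.45), Itgal (3.11) and Itgb1 (2.09) as higher, beside 43.0% of 10691 genes, and 0 lower, beside 21.3%. For suffixed R9 over unsuffixed R9 it was found for Itgav, beside 64.9% of 10321 genes, and 0 members lay at -1 or less, beside 16.1%. The comparisons with WT share the same WT cells. With 6 genes measured and such shares over all genes, the counts carry no result about the list as a whole.

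**Figure D5:**
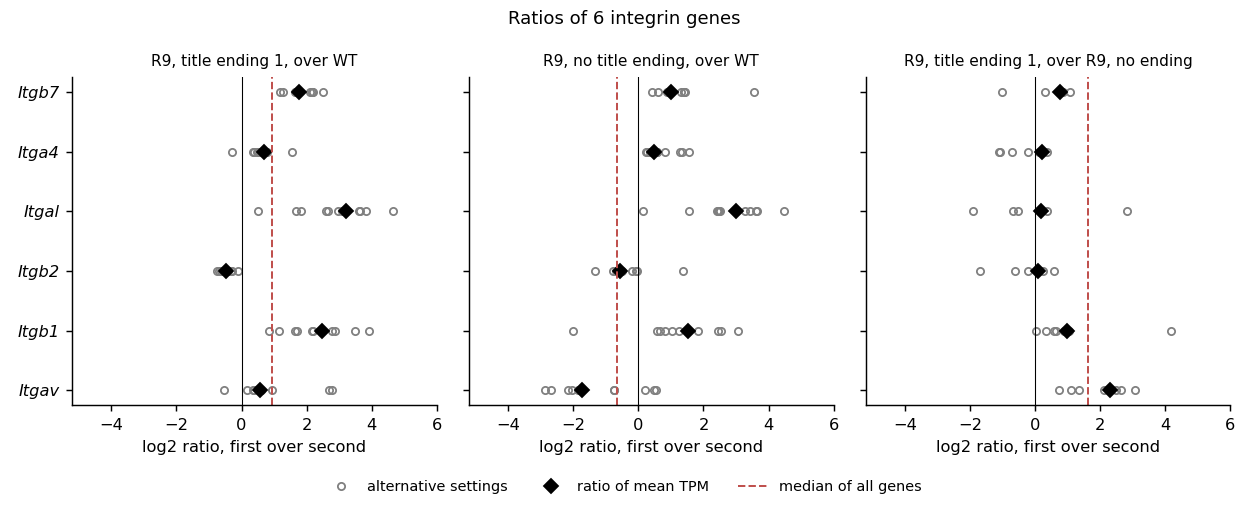
log2 ratios of 6 integrin genes, with the ratio of mean TPM as a diamond and the alternative settings as open circles. The dashed line is the median of all genes for the ratio of mean TPM alone, not for the alternative settings. The ratio of Itgb7 over WT stays above 0 in both R9 series, whereas Itgav in unsuffixed R9 over WT lies between -2.87 and 0.56.

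The other genes of the integrin system were grouped by role. Of 19 other integrin subunit genes, 5 averaged at least 1 TPM in suffixed R9 or WT, and 2 of these were at 1 or more and 0 at -1 or less, beside 48.8% and 20.4% of all genes. In unsuffixed R9 over WT the counts were 2 and 3 of 5, beside 26.6% and 44.5%. Itga5, the fibronectin receptor chain that pairs with Itgb1, averaged 38.5 TPM in suffixed R9, 15.3 TPM in unsuffixed R9 and 3.48 TPM in WT cells. It was detected in 9 of 35, 10 of 32 and 3 of 22 cells, and its log2 ratios over WT were 3.14 and 1.86.

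Among 34 genes for integrin activation and adaptors, 31 could be used in suffixed R9 over WT, where 23 were at 1 or more and 1 at -1 or less, beside 48.8% and 20.4% of all genes, and the median was 1.45 beside 0.94. In unsuffixed R9 over WT, 8 of 29 were at 1 or more, close to the 26.6% of all genes, and 5 at -1 or less, beside 44.5%, and the median was 0.12 beside -0.67. Kindlin-3 (Fermt3), which leukocytes need to switch integrins on, averaged 223.1 TPM in suffixed R9, 145.1 TPM in unsuffixed R9 and 144.9 TPM in WT cells, and was picked after its values were seen. The 4 largest pooled ratios among genes in at least 25% of cells were those of Itgb1bp1, Sharpin, Flna and Lims1. The first 3 encode proteins known to restrain integrin activation, and Lims1 encodes PINCH1, a partner of the integrin-linked kinase. Itgb1bp1 averaged 51.6 TPM in suffixed R9, 274.2 TPM in unsuffixed R9 and 3.93 TPM in WT cells, and was detected in 12 of 35, 12 of 32 and 7 of 22 cells. Its highest unsuffixed R9 cell stood at 8094 TPM, and its pooled ratio of 5.01 was 3.52 without the highest cells. Flna averaged 5.64, 14.8 and 0.915 TPM in these groups and was detected in 4 of 35, 15 of 32 and 1 of 22 cells. For Sharpin, with 1 unsuffixed R9 cell at 61958 TPM, the pooled ratio of 4.74 was 1.94 without the highest cells, and Lims1 stood at 1.89 and 1.97. The order rests on single cells, since without the highest cells Tln1 (2.38), Rap1a (2.34) and Parvg (2.24) lay above both Sharpin and Lims1.

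Among 20 ligand genes of the member integrins, 7 could be used in suffixed R9 over WT (2 at 1 or more, 3 at -1 or less, beside 48.8% and 20.4% of all genes) and 6 in unsuffixed R9 over WT (1 and 5, beside 26.6% and 44.5%). The LFA-1 ligand gene Icam1, which lymphocytes can also make, averaged 19.6 TPM in suffixed R9, 83.0 TPM in unsuffixed R9 and 205.0 TPM in WT cells, and was detected in 7 of 35, 23 of 32 and 12 of 22 cells. Its log2 ratios over WT were -3.32 and -1.29. Icam2, another LFA-1 ligand gene, averaged 407.5, 67.2 and 302.2 TPM in the same groups, with ratios of 0.43 and -2.15. Madcam1, the vessel ligand of the Itga4 and Itgb7 pair, was listed at 0 in every cell.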

How the data were processed

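Per the labels' protocols, cDNA of sorted cells was amplified (Discover-sc WTA Kit V2) and made into libraries (TruePrep DNA Library Prep Kit V2). The submitters' processing notes name StringTie 1.3.4, HISAT2 2.1.0, bcl2fastq and SAMtools 0.1.19 and the build mm10, and the settings are not given in the sources used here. The authors deposited TPM in 2 tables, 1 for R9 and 1 for WT, with 98 columns that each sum to 1000000. A ratio of R9 over WT therefore compares levels across 2 tables that were deposited separately.

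WT columns whose log2(TPM + 1) values had a Pearson r above 0.8, in genes at 1 TPM or more in both, were averaged as 1 cell (10 pairs, r from 0.844 to 0.995, next highest 0.738). That they are 1 cell is an assumption, since the joined columns share as little as 24.0% of their detected genes. Ratios are log2 of mean TPM plus 1 over mean TPM plus 1, which understates differences of low genes. A call means a log2 ratio of 1 in size among genes averaging at least 1 TPM in either group. Shares carry exact Clopper-Pearson 95% intervals. The ratio and join steps were tested on simulated data without added zeros. That checks the code only, and not how the steps act on cells with many zeros.

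The members and lists were chosen with earlier results of these data known. All members are described, and from each other list up to 4 genes with the largest pooled ratio in size among those detected in 25% or more of the cells of the higher group. Likeness used genes detected in 20% or more of each group, for members detected in 50% or more. Alternatives varied the pseudocount, kind of mean, scaling, cells, WT columns, detection limit and gene filter. Positions are from GENCODE M21 (GRCm38, the assembly of mm10). Values were computed with pandas 2.3.3 and numpy 2.4.6, intervals and rank correlations with scipy 1.17.1, and figures with matplotlib 3.10.9, in Python 3.11.15.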

Additional observations from a re-analysis of the deposited data

How the results depend on the processing

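Itgb7 over WT was positive under every alternative run, from 1.20 to 2.51 in suffixed R9 and from 0.43 to 3.54 in unsuffixed R9. The lowest of these, 1.20 and 0.43 with WT cells from 1 column only, stood beside all-gene medians of 1.28 and -0.21. Itgal over WT was positive too, from 0.52 to 4.64 and from 0.15 to 4.46. Its lowest ratios, 0.52 and 0.15, stood beside all-gene medians of 0.21 and -1.62. The mean of log2 values turned the sign of 9 of 24 member ratios, the largest number of any alternative. Itgav in unsuffixed R9 over WT turned to 0.20 by that mean, to 0.56 without the highest cells and to 0.47 with WT cells from 1 column only, an alternative chosen after seeing the data. Itgb1 in that comparison turned to -2.01 without cells in which 1 gene held 10% of TPM, which left 6 unsuffixed R9 cells. The all-gene median of that setting was -1.62. The number of members at a log2 ratio of 1 or more in unsuffixed R9 over WT, 2 as reported, was 1 with a pseudocount of 10, 4 without the highest cells, 1 without cells with such a gene and 3 with a pseudocount of 0.1, the mean of log2 values, all WT columns as cells and WT columns of either ending. The number at -1 or less there, 1 as reported, was 0 with a pseudocount of 10, the mean of log2 values, common-gene scaling, without the highest cells and with WT cells from 1 column, and 3 without cells with such a gene. In suffixed R9 over WT, 3 members were higher as reported, 1 by the mean of log2 values and 4 without the highest cells, with WT columns of ending 1 and with WT cells from 1 column. In pooled R9 over WT, 3 were higher as reported, 5 without the highest cells, 2 with a pseudocount of 10 and by the mean of log2 values, and 4 with WT columns of ending 1, and 0 were lower as reported and 1 with WT columns of ending 1. In suffixed over unsuffixed R9, 1 was higher as reported, 2 with a pseudocount of 0.1, 0 by the mean of log2 values and 4 without cells with such a gene, and 0 were lower as reported, 4 by the mean of log2 values and 1 without cells with such a gene. Alternatives not named for a count left it as reported. The cause was not tested. No paired analysis was possible because cells of equal title number share no source in the labels and no test was run. Depth is unknown, so detection shares cannot be set to equal depth.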
